A study of Mus musculus with 6 samples.

Results

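The glycolysis enzyme genes described here are Hk1, Gpi1, Pfkm, Pfkp, Tpi1, Pgk1, Eno1, Eno2, Ldha and Ldhb, 10 of the 24553 genes and unmatched rows in the count table. They were taken by name, and all 10 were found. RNA was sequenced from the cortex of male C57BL/6 mice (C57BL/6J in the growth protocol), 15 weeks old and 14 days after stroke. The SCFA group of 3 libraries had short-chain fatty acids in the drinking water, and the control group of 3 libraries had a salt-matched control, each for 4 weeks starting at an age of 6 to 8 weeks. Animals of both groups were also given Vancomycin, Ampicillin, Neomycin and Metronidazol, in water with sucrose at 5%, so the comparison was made in antibiotic-treated mice. The design speaks of 3 mice per group, and each library was taken as 1 animal. The hemisphere and the distance from the lesion, not given in the sources used here, remain unknown.

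Glycolysis turns glucose into pyruvate in the cytosol and yields ATP and NADH without oxygen. The brain depends on glucose, and most steps are served by isoenzymes from separate genes whose balance differs between cell types. Lactate dehydrogenase then interconverts pyruvate and lactate, and astrocytes and neurons are known to exchange lactate. Many of these genes are textbook targets of the hypoxia factor Hif1, and enolase 2, the neuron-specific enolase, is a clinical marker of neuronal injury.

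Total counts per library ran from 9275252 to 13862756, of which a single row without a gene symbol took 35.0% to 55.3%. Control 2 stood apart on the first principal component (109.2, against -25.77 to -17.74 in the other libraries) and SCFA 2 on the second (51.59, against -30.74 to 9.537). Control 2 was also the library with 55.3% of its counts in the row without a symbol. It had 13600 rows with counts, against 15988 to 16941 in the other libraries. Striatal neuron markers (9 genes) summed to 397.3 CPM in SCFA 2 and to 71.35 to 133.6 CPM in the other 5 libraries. Neuronal markers, 11 of 11 genes in the table, summed to 2052 to 2254 CPM (counts scaled by effective library size) in controls and 2208 to 2506 CPM with SCFA. Astrocyte markers (10 genes) summed to 827.5 to 984.3 and 1146 to 1648 CPM, and microglial markers (10 genes) to 317.4 to 458.0 and 539.2 to 831.2 CPM. The neuronal markers include Eno2 and the astrocyte markers Aldoc. Red blood cell markers (6 genes) summed to 0.0 to 2.266 CPM in controls and 0.3722 to 0.9402 CPM with SCFA. Among them the haemoglobin genes (Hba-a1, Hba-a2, Hbb-bs and Hbb-bt) were at 0 in all 6 libraries. Near-identical copies were not searched for these genes, so the zeros were not read as absence of blood. Exocrine pancreas markers summed to 37.04 to 378.2 CPM in controls and 0.825 to 2.612 CPM with SCFA.

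What could be read from these genes differed with their transcript rows. The table counts reads per RefSeq transcript, and the 10 genes had 19 rows: 4 genes had 1 row, 3 had 2 and 3 had 3. All 19 rows were paired with an exon model of GENCODE release M21 on GRCm38. A base was called private when no other row of the table that could be paired with a model (97.7% of rows) covered it on either strand. Of the 13 member rows with more than 5 private bases, 13 held counts. The 6 rows with 5 or fewer private bases were all at 0 in all 6 libraries. The cut at 5 is that of an Ldha row with 5 private bases and 0 counts, so the split only describes these 19 rows. The whole table had the same tendency among protein-coding genes with 2 or more rows, where 5713 of 6443 rows without a private base (88.7%) were at 0 throughout, against 664 of 2258 rows with 500 or more private bases (29.4%). Among protein-coding genes with 1 row, 2567 of 15096 (17.0%) were at 0. A count near 0 for a member with several rows was therefore not read as a low transcript level.

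**Figure D1:**
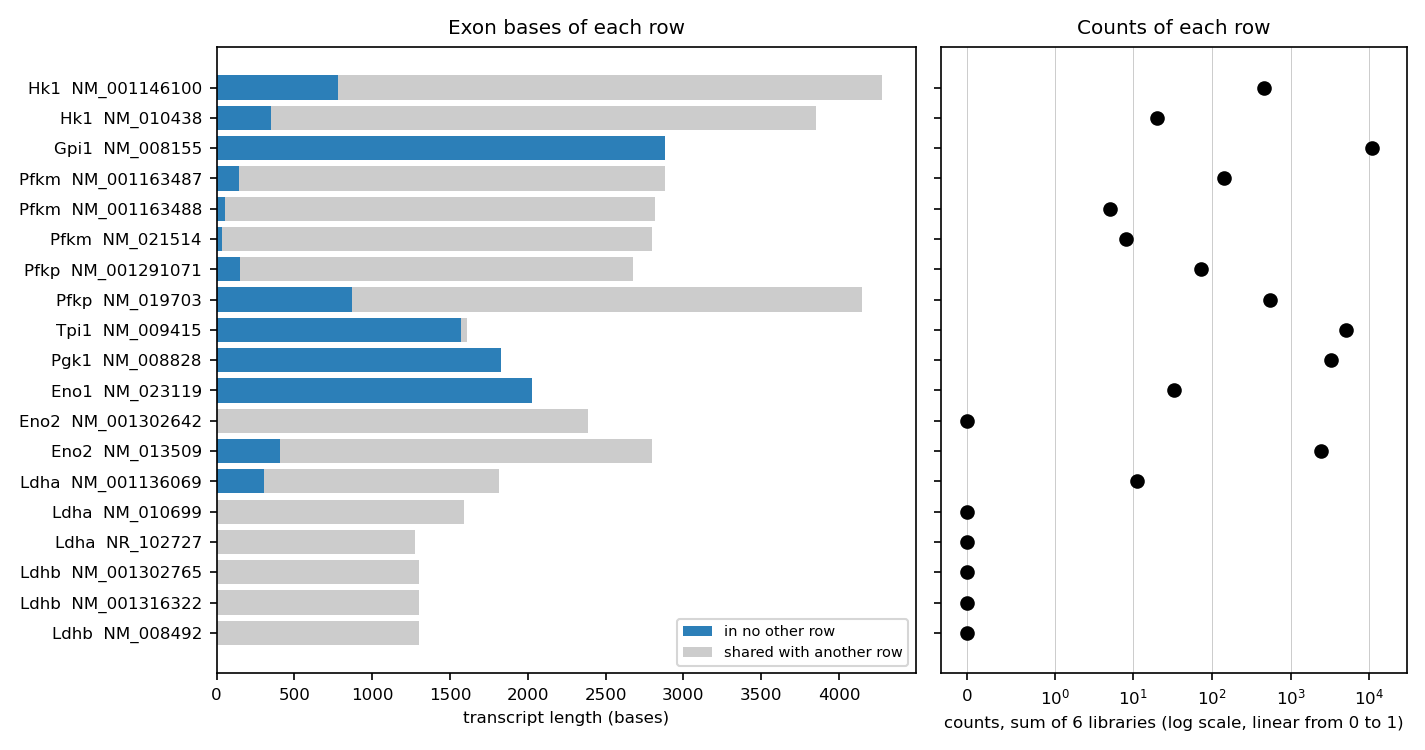
Left, exon bases of the 19 transcript rows of the 10 genes, split into bases in no other row (blue) and bases shared with another row (grey). Right, the counts of each row summed over 6 libraries on a log scale that is linear from 0 to 1; the 6 rows with 5 or fewer private bases are at 0.

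Stretches of coding sequence that separate the rows are shown for the genes with alternative coding exons, because reads from them can be told apart between rows. The counts of a row can come from any of its private bases. The stretches make up 63 of 779 private bases in Hk1 row NM_001146100, 153 of 871 in Pfkp row NM_019703 and 167 of 558 in Pkm row NM_011099. In Pfkp row NM_001291071 and Pkm row NM_001253883 they are all of the private bases. Pfkp encodes the platelet-type phosphofructokinase subunit. Its 2 rows use different exons of 153 bases at GRCm38 chr13:6597859-6598011 and chr13:6593101-6593253, both on the minus strand, with capitals where the 2 exons differ (63 bases, 58.8% identity).
Pfkp NM_019703 exon: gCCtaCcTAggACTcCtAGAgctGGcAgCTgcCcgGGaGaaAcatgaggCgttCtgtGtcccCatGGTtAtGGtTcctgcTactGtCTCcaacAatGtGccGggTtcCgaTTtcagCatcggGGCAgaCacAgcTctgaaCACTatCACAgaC
Pfkp NM_001291071 exon: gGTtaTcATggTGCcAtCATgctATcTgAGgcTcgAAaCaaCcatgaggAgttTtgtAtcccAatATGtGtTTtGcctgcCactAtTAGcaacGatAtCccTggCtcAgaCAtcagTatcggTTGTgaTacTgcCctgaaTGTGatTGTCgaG
The major Hk1 row has its own first exon, whose 63 coding bases at GRCm38 chr10:62340013-62340075 (minus strand) open with the start codon, in capitals. This N-terminal stretch of hexokinase 1 is known for anchoring the enzyme to the mitochondrial outer membrane.
Hk1 NM_001146100 first coding bases: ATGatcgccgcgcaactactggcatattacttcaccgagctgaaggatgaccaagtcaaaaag
Pkm, the pyruvate kinase gene outside the 10, offers the classic exon pair of the pathway, the M1 exon at GRCm38 chr9:59675029-59675195 and the M2 exon at chr9:59675568-59675734 (plus strand, 167 bases each). They differ at 64 bases (61.7% identity), again in capitals.
Pkm NM_001253883 exon: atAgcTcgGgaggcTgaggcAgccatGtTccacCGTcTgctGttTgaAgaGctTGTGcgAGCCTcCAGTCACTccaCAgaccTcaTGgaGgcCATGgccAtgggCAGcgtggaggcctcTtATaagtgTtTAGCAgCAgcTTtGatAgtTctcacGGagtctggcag
Pkm NM_011099 exon: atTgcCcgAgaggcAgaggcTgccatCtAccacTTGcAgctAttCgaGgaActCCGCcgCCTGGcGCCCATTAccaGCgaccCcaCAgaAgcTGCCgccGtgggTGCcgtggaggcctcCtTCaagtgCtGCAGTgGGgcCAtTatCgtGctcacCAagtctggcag

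The comparison of SCFA with control asks whether the treatment altered the cortical transcriptome after stroke. No change was called in the glycolysis enzyme genes that could be tested. Of the 10 genes, 7 had enough counts to be tested and 0 passed an adjusted p of 0.05 (edgeR quasi-likelihood test), beside 10 of 11969 genes tested (0.0835%, or 0.00835% higher and 0.0752% lower). At an unadjusted p under 0.05 there were 0 of the 7, beside 5.76% of all genes tested. With DESeq2 0 members were called as well, beside 14 genes higher and 17 lower over the whole table. With limma-voom 0 genes of the whole table were called, so its 0 says nothing particular to the members. The log2 fold changes (SCFA minus control) lay between -0.21 and 0.30, 3 above and 4 below 0. Their median was -0.0045, where the median of all tested genes was 0.0085 and their interquartile range -0.24 to 0.27. In a bulk tissue sample, fewer cells of a type and less RNA per cell cannot be told apart. Nothing in the labels marks an extraction or sequencing batch.

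**Figure D2:**
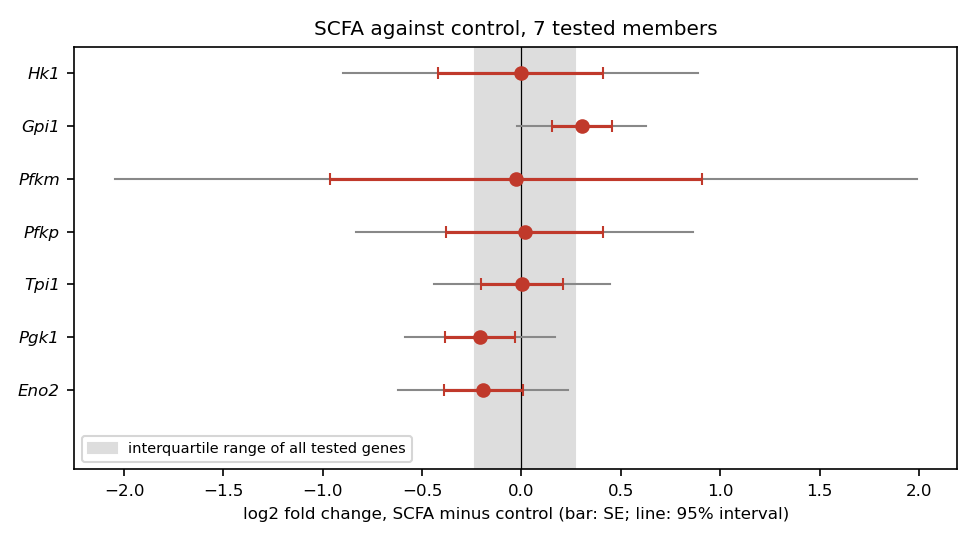
Log2 fold change (SCFA minus control) of the 7 tested genes, with the standard error (red bars) and the 95% interval (grey lines), over the interquartile range of all tested genes (grey band). All 7 intervals include 0. Those of Gpi1, Tpi1, Pgk1 and Eno2 are narrower than the others, though that of Tpi1 still runs from -0.44 to 0.44. That of Pfkm runs from -2.05 to 1.99.

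Hexokinase phosphorylates glucose on entry into the cell, and hexokinase 1 is the main brain form. Hk1 (chromosome 10, 62268855 to 62379908 over both rows) measured 6.47, 6.34 and 7.51 CPM in controls 1 to 3 and 3.97, 7.36 and 8.86 CPM in SCFA 1 to 3. SCFA 1 was the lowest of the 6 libraries and SCFA 3 the highest, so the groups overlapped. The log2 fold change was -0.0045 (SE 0.41, 95% interval -0.90 to 0.89, adjusted p = 0.999), a range that leaves the direction unknown. Of its 474 counts, 454 fell on row NM_001146100, which has 779 private bases, and 20 on row NM_010438, which has 352. Per 1000 private bases that was 583 counts against 56.8, so the row with the N-terminal stretch printed above held the larger signal also per length. Of its 779 private bases only 63 are that stretch, and 249 noncoding bases lie at the other end of the row. The counts of the row need not come from the printed stretch.

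Glucose-6-phosphate isomerase makes fructose-6-phosphate. Gpi1 (chromosome 7, 34201330 to 34230336, 1 row) held 10637 counts, 47.0% of all counts of the 10 genes. It measured 142, 122 and 142 CPM in controls and 144, 189 and 169 CPM with SCFA. Each SCFA library lay above each control, though SCFA 1 (143.9) exceeded the highest control (142.4) by little. It was the 1 member of 7 tested whose groups did not overlap, where 12.2% of all tested genes showed no overlap. The log2 fold change of 0.30 (SE 0.15, 95% interval -0.023 to 0.63) did not pass (adjusted p = 0.881), and it lay between 0.14 and 0.48 over 17 alternative settings without passing in any. Summed astrocyte and microglial markers were also higher in each SCFA library than in each control, and their part in the values of Gpi1 was not tested. SCFA 2, which had the highest Gpi1 value, also had the highest striatal marker sum, and without it the log2 fold change was 0.21.

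Phosphofructokinase commits sugar to glycolysis, and its subunits come from the muscle-type gene Pfkm, the platelet-type gene Pfkp and the liver-type gene Pfkl. Pfkm (chromosome 15, 98092589 to 98132451, 3 rows with 146, 55 and 37 private bases) had 17, 22 and 27 counts in controls and 1, 45 and 43 with SCFA. SCFA 1 lay below all other libraries while SCFA 2 and SCFA 3 lay above every control. Its log2 fold change of -0.029 had an SE of 0.94, and without SCFA 1 it was 0.52 (adjusted p = 0.969), so no size of change can be read for this gene. Pfkp (chromosome 13, 6579768 to 6648777) measured 6.15, 11.99 and 9.71 CPM in controls and 10.8, 11.8 and 5.51 CPM with SCFA. The groups covered almost the same range, and the log2 fold change was 0.016 (SE 0.39, 95% interval -0.83 to 0.86, adjusted p = 0.998). Of the Pfkp counts, 553 were on row NM_019703 and 73 on row NM_001291071. These were 635 and 477 counts per 1000 private bases, a level of the same order for both, although most private bases of the first row lie outside the exon printed above. That row also shares 748 bases with the neighbouring gene Pitrm1.

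Triose phosphate isomerase brings both products of the aldolase step into the lower pathway. Tpi1 (chromosome 6, 124810586 to 124814296, 1 row, 1573 of 1607 bases private) measured 62.6, 84.4 and 71.9 CPM in controls and 52.2, 76.9 and 89.8 CPM with SCFA. The means were 73.0 ± 10.9 and 73.0 ± 19.1 CPM (SD, n = 3 each), with the lowest and the highest value both in the SCFA group. The log2 fold change of 0.0028 had an SE of 0.20 and a 95% interval from -0.44 to 0.44 (adjusted p = 0.999). Among Gpi1, Tpi1, Pgk1 and Eno2, its group means were the closest.

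Phosphoglycerate kinase makes the first ATP of the lower pathway. Pgk1 (chromosome X, 106187100 to 106203699, 1 row, all 1825 bases private) measured 50.8, 57.9 and 45.9 CPM in controls and 41.9, 44.1 and 47.6 CPM with SCFA. SCFA 3 lay above control 3, so the groups overlapped. The log2 fold change was -0.21 (SE 0.18, 95% interval -0.59 to 0.17, adjusted p = 0.914), and -0.12 without control 2. Pseudogene transcripts of at least 95% identity over at least 50% of the length numbered 2 in GENCODE, the closest being Pgk1-rs7 (no mismatch over 1255 bases), so the split of reads between Pgk1 and its copies is uncertain.

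Enolase makes phosphoenolpyruvate, and its ubiquitous alpha form comes from Eno1 and its neuronal gamma form from Eno2. Eno2 (chromosome 6, 124760055 to 124769673) measured 39.7, 38.6 and 34.7 CPM in controls and 39.0, 31.8 and 28.3 CPM with SCFA. SCFA 2 and SCFA 3 were below every control, while SCFA 1 lay between control 1 and control 2. The log2 fold change was -0.19 (SE 0.20, 95% interval -0.62 to 0.24, adjusted p = 0.937). It was -0.091 without SCFA 3 and -0.32 without SCFA 1. All 2389 counts were on row NM_013509, which has 409 private bases, 357 of them coding. Row NM_001302642 lies wholly within the first and had 0 counts.

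Eno1 (chromosome 4, 150236952 to 150248879, 1 row) had 1, 21 and 0 counts in controls and 0, 8 and 3 with SCFA, too few to test. Most of them came from control 2. All 2027 bases of its row are private, yet its transcript is 99.5% identical over 1736 bases to that of Eno1b, a second protein-coding enolase copy, whose row held 11934 counts against 33. Reads of the 2 copies cannot be told apart with certainty, so the alpha-enolase signal was taken from both rows together. Eno1b averaged 163 ± 6.08 CPM in controls, while the SCFA libraries averaged 180 ± 31.6 CPM (SD, n = 3 each), and its log2 fold change was 0.14 (SE 0.15, adjusted p = 0.941).

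The lactate dehydrogenase genes could not be read. Ldha encodes the M subunit, which favours lactate formation, and had 4, 1 and 0 counts in controls and 0, 4 and 2 with SCFA. Its 3 rows have 307, 5 and 0 private bases, and all 11 counts were on the row NM_001136069 with 307. Ldhb encodes the H subunit, which favours lactate use, and was at 0 in all 6 libraries. Its 3 rows share 1 exon model in GENCODE, so no base of them is private. A count of 0 allows up to 3 counts per library, or 0.206 to 0.346 CPM, as counting error only, and says nothing of the reads that fall on shared bases. Both genes have near-identical pseudogene transcripts, 2 for Ldha (up to 95.9% identity) and 1 for Ldhb (98.0%). The ratio of Ldha to Ldhb, the usual measure of lactate balance, was therefore not computed.

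**Figure D3:**
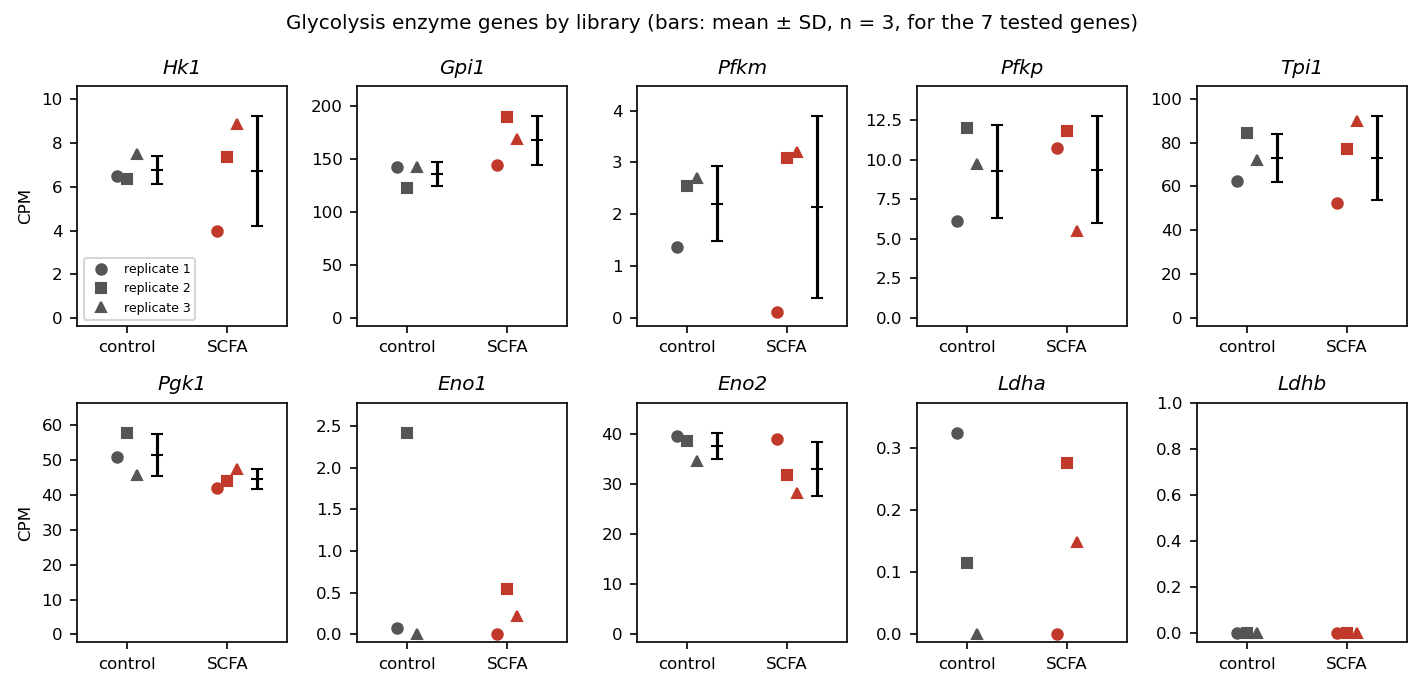
CPM of the 10 genes in each library (grey controls, red SCFA, marker shape by replicate number), each panel on its own linear axis. Black bars give the mean ± SD of 3 libraries for the 7 tested genes; Eno1 and Ldha stay below 2.5 and 0.4 CPM and Ldhb is at 0.

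Levels were compared between genes as CPM per 1000 private bases, summed over the rows of a gene. On this scale Eno2, at 69.2 to 97.2 over the 6 libraries, was highest of the 7 tested members. It lay above the range of Gpi1 (42.4 to 65.7). Ldhb has no private base and so no level, and Eno1 and Ldha had too few counts to be ranked. Gpi1 and Tpi1 (33.2 to 57.1) overlapped, and Pgk1 (23.0 to 31.7) lay below both. Pfkm (0.439 to 13.5), Pfkp (5.38 to 11.7) and Hk1 (3.51 to 7.83) lay lower and overlapped among themselves. Of the members, Hk1, Pfkm and Pfkp thus lay below Gpi1, Tpi1, Pgk1 and Eno2 in every library. Pfkl, the phosphofructokinase gene outside the 10, was at 19.0 to 31.1 and overlapped Pgk1. The handling of reads that cross from private into shared exons, not given in the sources used here, bears on the levels of several members. These are Hk1, Pfkm, Pfkp and Eno2, which have several rows, and Tpi1, which shares 34 of its 1607 bases with Spsb2. It does not bear on Gpi1 and Pgk1, whose bases are all private. Eno1b, at 83.5 to 118.7, overlapped Eno2. Gpi1, Tpi1, Pgk1 and Eno2 held 94.3% of the 22643 counts of the 10 genes.

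Isoenzyme balance was measured as the log2 ratio of the counts of 2 genes within a library, which no library scaling can alter. With 3 libraries against 3 the exact two-sided permutation test cannot go below p = 0.1, and 6 ratios were computed. The ratio of alpha to gamma enolase (Eno1 and Eno1b over Eno2, chosen after the counts had been seen) was 1.98, 2.15 and 2.24 in controls and 1.94, 2.74 and 2.65 with SCFA. SCFA 2 and SCFA 3 lay above every control and SCFA 1 below, and the difference of 0.32 did not exceed the spread (exact permutation p = 0.4, adjusted 0.8). It was 0.17 without SCFA 2, the library with the highest striatal marker sum, and 0.57 without SCFA 1. Per length the 2 forms cannot be set against each other from this ratio alone. The ratio of Eno1 alone to Eno2, with 0.5 counts added because of zeros, differed by -0.11 (exact permutation p = 0.9).

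Pfkp exceeded Pfkm in counts in all 6 libraries, with log2 ratios of 2.16, 2.24 and 1.85 in controls and 6.69, 1.93 and 0.78 with SCFA. The value of SCFA 1 rests on its single Pfkm count. The difference was 1.05 with that library and -0.72 without it (exact permutation p = 0.9 and 0.2), so no direction can be given. The ratio of Pfkl to Pfkm likewise differed by 1.03 and by -0.61 without SCFA 1. Pfkp has 1024 private bases, Pfkl 3730 and Pfkm 238, so neither of these ratios compares levels per length. Scaled by private bases, the ranges of Pfkp and Pfkm overlapped, and that of Pfkl lay above Pfkm. Hk2 encodes the inducible hexokinase, and its log2 ratio to Hk1 was 0.15, -5.78 and 0.44 in controls and 1.71, 0.98 and 0.50 with SCFA. Each SCFA library lay above each control, and the difference was 2.79 (exact permutation p = 0.1, adjusted 0.3). That size rests on control 2, which had 1 Hk2 count where the other 5 libraries had 89 to 211. Without control 2 the difference was 0.76. Hk2 has 5513 private bases and Hk1 1131, so the ratio does not compare their levels per length.

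The 2 rows of Pkm were the one pair of rows of a gene whose ratio was computed, and the groups did not overlap. The M2 row had 12, 9 and 13 counts in controls and 4, 4 and 4 with SCFA, while the M1 row had 144, 89 and 145 and then 128, 257 and 159. The log2 ratio of M2 to M1 was -3.58, -3.31 and -3.48 in controls and -5.00, -6.01 and -5.31 with SCFA. The difference was -1.98 (exact permutation p = 0.1, adjusted 0.3), between -2.20 and -1.70 with any 1 library left out, so it did not pass and rests on 34 M2 counts against 12. This ratio was chosen after the counts had been seen. M1 is known as the form of adult brain and muscle, and M2 as that of proliferating cells. Private bases of the M2 row number 558 and only 167 of them are the M2 exon, so its counts need not come from that exon. A pseudogene transcript, Gm6560, is 98.4% identical to Pkm over 1593 bases, and the split of reads between them is uncertain.

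**Figure D4:**
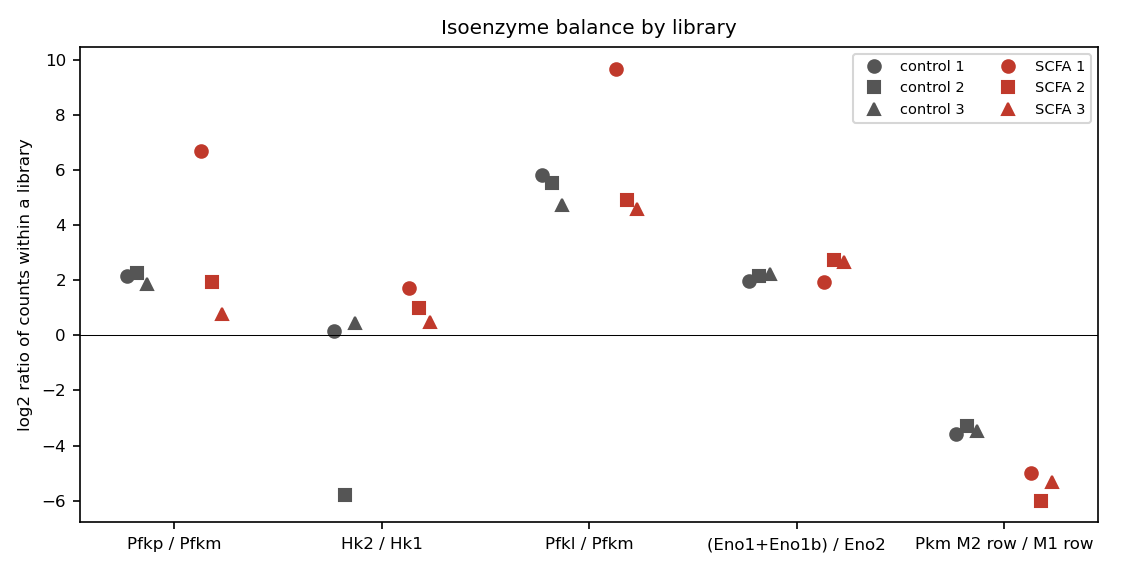
Log2 ratio of counts within each library for 5 isoenzyme or row pairs (grey controls, red SCFA, marker shape by replicate number). SCFA 1 stands apart in the pairs with Pfkm and control 2 in Hk2 over Hk1 (-5.78); the Pkm row ratio is -3.58 to -3.31 in controls and -6.01 to -5.00 with SCFA.

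The remaining enzymes of the pathway fill the steps between the 10 genes. Of 20 other glycolytic enzymes and isoenzymes, 12 were tested, 0 passed, and 6 lay above and 6 below 0 with a median log2 fold change of 0.028. Phosphoglycerate mutase 1 (Pgam1, 9762 counts, log2 fold change 0.20, SE 0.17), Pfkl (5852 counts, -0.058, SE 0.19) and Bpgm (3398 counts, 0.090, SE 0.17) were the deepest beside Eno1b. Hk2 averaged 5.84 CPM in the control group, where control 2 had 1 count, and 13.3 CPM in the SCFA group (log2 fold change 1.18, SE 0.71, adjusted p = 0.889). The astrocytic aldolase gene Aldoc stood at 0.44 (SE 0.35), Aldoa at -0.28 (SE 0.37) and Pkm at 0.14 (SE 0.29). Hkdc1 stood at -0.60 (SE 0.32). Eno4 and Pgam2 stood at -0.72 and -0.034. Gapdh had 40 counts in all, with 72 near-identical transcripts of other genes, and Gapdhs had 28, Eno3 3 and Ldhc 1. Hk3, Pgk2 and Pklr were at 0.

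Around the pathway, 10 lists (the other glycolytic enzymes included) held 119 genes, of which 95 were tested and 0 passed. An unadjusted p under 0.05 (edgeR quasi-likelihood test) was seen for 6 of the 95, beside 690 of all 11969 genes tested (5.76%). The count of 6 is thus near the share of the whole table and was not read as a result about these lists. The 6 were the glucose transporter gene Slc2a1 (log2 fold change 0.71, SE 0.23), the lactate transporter gene Slc16a1 (0.82, SE 0.22), Dld of the pyruvate dehydrogenase complex (-0.44, SE 0.17), Suclg2 of the citric acid cycle (0.81, SE 0.36), the glycogen synthase gene Gys1 (-0.87, SE 0.33) and the Hif1 regulator gene Vhl (0.62, SE 0.27). Their adjusted p values lay between 0.795 and 0.864. Endothelial markers, which include Slc2a1, summed to 97.69 to 109.8 CPM in controls and 128.8 to 150.6 CPM with SCFA, and their part in the Slc2a1 value was not tested. Next by p in these lists came Slc2a10 (1.63, SE 1.12), Slc16a7 (-0.36), Dlat (-0.34), Cs (0.30) and the hypoxia factor gene Epas1 (0.30). In the other lists the smallest p values belonged to the AMP kinase genes Prkaa1 (0.24) and Prkaa2 (-0.18), to the shuttle genes Gpd1 (-0.31) and Got2 (0.22) and to the pentose phosphate genes Rpia (0.49) and G6pdx (0.40). The list medians lay between -0.11 (glucose transporters) and 0.23 (pentose phosphate pathway), beside 0.0085 for all tested genes. The hypoxia list had a median of 0.063 over 14 tested genes.

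**Figure D5:**
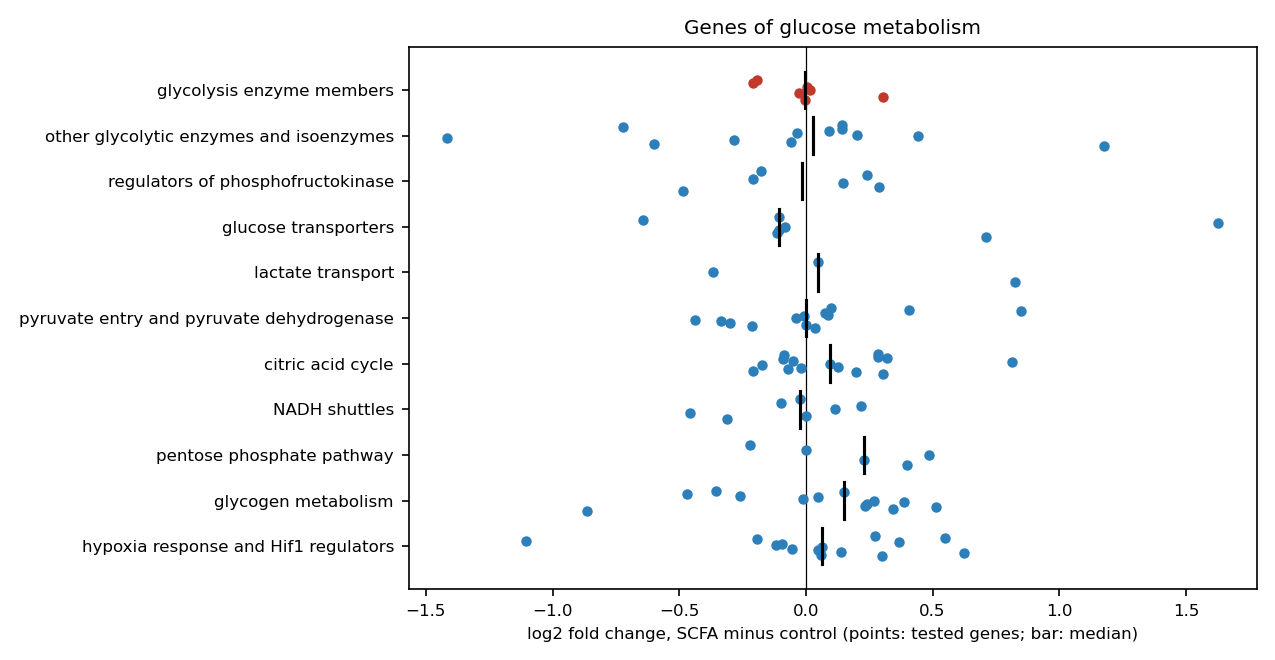
Log2 fold change (SCFA minus control) of each tested gene in 11 lists of glucose metabolism, with the list median as a black bar. The 7 tested glycolysis enzyme members (red) lie between -0.21 and 0.30, and the list medians between -0.11 and 0.23.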

How the data were processed

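Cortex RNA of 3 SCFA and 3 control libraries was used. The deposited values are raw counts per RefSeq transcript (34755 rows), made by the authors with CASAVA 1.8.2 and featureCounts on mm10, per the submitters' processing notes. The aligner, strand setting and handling of shared reads were not given in the sources used. Rows were matched to symbols through RefSeq's GRCm38.p6 table (34424 rows, 99.05%) and summed per symbol.

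The test was that of edgeR 4.0.16 (R 4.3.3): filterByExpr (minimum count 10, minimum total 15), TMM, and the quasi-likelihood F test, two-sided, with Benjamini-Hochberg adjustment over 11969 genes. The standard error is the log2 fold change divided by the square root of F, and 95% intervals use the fit's degrees of freedom. Exon models came from GENCODE M21, and near-identical transcripts from BLAST 2.17.0 (95% identity over 50% of the length).

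The members, lists and tests were chosen with earlier results of these data known. The named genes are the 10 members, all other glycolytic enzymes and, per other list, genes past the threshold or the 2 with the smallest p; 3 genes that this rule names are counted in their lists but not reported here. P-values measure the spread between these libraries only. Alternatives were other scalings, filters, DESeq2 1.42.0, limma-voom 3.58.1, a replicate block, libraries left out and unsummed rows. The deviations of libraries with the same number correlated at -0.00206, 0.0101 and -0.00525, and the numbers were not treated as pairs.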

Additional observations from a re-analysis of the deposited data

How the results depend on the processing

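Over 17 settings 0 of the tested members and 0 genes of the other lists passed, and Gpi1, Pgk1 and Eno2 kept their sign. Total counts brought Pgk1 to -0.022 and Eno2 to -0.016. Members near 0 changed sign. Tpi1 was at -0.0059 with DESeq2 size factors, -0.0062 with DESeq2 and -0.024 with the replicate block, Hk1 at 0.17 with total counts and 0.052 with unsummed rows, Pfkm at 0.21 with total counts, and Pfkp at -0.0095 with the replicate block. The median over all genes, 0.009, became 0.18 with total counts. With 1 library left out, Hk1 ranged from -0.25 to 0.27, Pfkm from -0.43 to 0.52, Pfkp from -0.21 to 0.29 and Tpi1 from -0.17 to 0.20. The median of the members ranged from -0.17 to 0.20, the difference of Pfkp over Pfkm from -0.72 to 2.23 and the difference of Pfkl over Pfkm from -0.61 to 1.93.

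Genes called over the whole table were 1 higher and 9 lower. They were 30 and 25 without a filter, 14 and 17 with DESeq2, and 0 and 0 with limma-voom (805 at an unadjusted p under 0.05). They were 10 and 12 with the replicate block and 14 and 11 without control 2 and SCFA 2, an alternative chosen after seeing the data. With 1 library left out, 0 to 8 were higher and 0 to 13 lower. The cause was not tested. Low counts limit what can be read for Pfkm, and a near-identical copy does so for Eno1. Ldhb has no private base. Ldha had 11 counts on a row with 307 private bases, and the reason for so few was not tested. Both Ldha and Ldhb have near-identical pseudogene transcripts.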
